A study of Mus musculus with 4 samples.

Results

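The transcription factors of the endocardial-to-mesenchymal transition examined here are *Snai1*, *Snai2*, *Twist1*, *Twist2*, *Zeb1*, *Zeb2*, *Msx1*, *Msx2*, *Sox9* and *Prrx1*. They were chosen by symbol, as a list of 10 genes, and each symbol matched 1 of the 32285 genes in the count files. Hearts of mouse embryos at E10.5 were dissected with the entire cardiogenic region, and their cells were sequenced one by one in droplets (10x Genomics), where every captured transcript carries a unique molecular identifier (UMI). Of the 4 libraries, replicates 5 and 7 were controls, labelled Tie2flfl, and replicates 6 and 8 were *Tie2-cko*, labelled Nfatcre-Tie2flfl (*Nfatc1Cre;Tie2 f/f* in the methods). Both groups thus carried the floxed alleles of *Tie2*, the receptor tyrosine kinase gene listed as *Tek*, and only *Tie2-cko* embryos carried the Cre knocked into *Nfatc1*, which is active in the endocardium and in the cells that descend from it. By the methods, the mice were of mixed background (129 and C57/BL6) and embryos of both sexes were used. The first comparison follows the 10 genes from chamber endocardial cells (EdCs) through cushion EdCs to mesenchymal cells (MCs), and the second compares control with *Tie2-cko* hearts within each of these cell types.

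In the atrioventricular canal and outflow tract, signals from the myocardium induce some EdCs to lose their junctions and enter the cardiac jelly. There they become mesenchyme of the endocardial cushions, the forerunners of valves and septa. The MCs of this report were named by markers and not by descent. The zinc finger proteins SNAI1 and SNAI2 and the zinc finger homeodomain proteins ZEB1 and ZEB2 bind E-boxes and repress junction genes in such transitions. TWIST1 and TWIST2 are basic helix-loop-helix factors of mesenchyme. MSX1 and MSX2 are homeodomain proteins that act downstream of BMP signals in the cushions. SOX9 is a high mobility group factor needed for the expansion of cushion mesenchyme, and PRRX1 is a paired-related homeodomain factor of limb, facial and other mesenchyme.

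The genes lie apart from each other in the genome. By GENCODE M21 on GRCm38, the 9 members placed here are protein-coding, with *Snai1* at chr2:167538195-167542814 and *Zeb2* at chr2:44983632-45117395, *Twist1* at chr12:33957671-33959829, *Snai2* at chr16:14705852-14709385 and *Sox9* at chr11:112782224-112787760. *Msx1* lies at chr5:37820485-37824583, *Msx2* at chr13:53466884-53473074, *Twist2* at chr1:91801461-91848028 and *Prrx1* at chr1:163245119-163313710.

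The 250 bases before the start of *Snai1*, *Twist1* and *Msx1* are shown because these members were higher at each step from chamber EdCs to MCs, and because SNAI, ZEB and TWIST factors bind E-boxes. They are RefSeq sequences on GRCm38.p6, printed 5′ to 3′ on the strand of the gene, and capitals mark the E-box CAGGTG read on either strand (CACCTG on the other).

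Snai1, chr2:167537945-167538194, plus strand: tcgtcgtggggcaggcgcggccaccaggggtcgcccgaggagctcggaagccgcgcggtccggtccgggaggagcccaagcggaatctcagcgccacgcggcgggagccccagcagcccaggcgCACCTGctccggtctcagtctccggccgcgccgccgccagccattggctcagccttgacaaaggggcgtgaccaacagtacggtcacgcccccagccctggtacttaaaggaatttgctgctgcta

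Twist1, chr12:33957421-33957670, plus strand: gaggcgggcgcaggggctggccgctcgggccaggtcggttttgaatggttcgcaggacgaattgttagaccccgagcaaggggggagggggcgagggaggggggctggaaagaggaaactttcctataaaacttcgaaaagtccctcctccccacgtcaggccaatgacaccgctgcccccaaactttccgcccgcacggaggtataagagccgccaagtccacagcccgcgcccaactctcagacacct

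Msx1, chr5:37824586-37824835, minus strand: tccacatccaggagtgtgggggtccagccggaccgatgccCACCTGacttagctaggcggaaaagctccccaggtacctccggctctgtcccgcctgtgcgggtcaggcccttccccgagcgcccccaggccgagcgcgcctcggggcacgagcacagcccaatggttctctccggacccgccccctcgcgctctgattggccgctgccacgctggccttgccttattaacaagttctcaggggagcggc

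The E-box stood once in the window of *Snai1*, starting 126 bases before the gene, and once in that of *Msx1*, starting 210 bases before it. The window of *Twist1* held no such letters. Of the 10 members 7 had an entry, with 10 starts in all, and 2 of these starts held the E-box, against 17.2% of the 32851 mouse promoters searched over the same length. The starts with the E-box belong to *Snai1* and *Msx1*, which are printed above. *Twist2*, also higher at each step from chamber EdCs to MCs, was searched and is not printed. The FOXO motif TGTTTAC, on either strand, was in none of the 10 starts and in 3.17% of all promoters. These matches describe letters in a window and no binding was measured.

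The 4 libraries held 5684 to 10097 kept cells with medians of 14898 to 25740 UMIs, and the cell barcodes shared by any pair of libraries numbered 29 to 62. Clusters were named from other genes, with the 10 members, *Tek* and all genes of the lists below kept out of the clustering and of the marker lists. Chamber EdCs carried all 4 of their markers (*Emcn*, *Npr3*, *Gata2* and *Gpr182*) and numbered 378, 140, 589 and 450 cells in replicates 5, 6, 7 and 8. Cushion EdCs carried all 4 of theirs (*Nfatc1*, *Wnt4*, *Wnt9b* and *Tbx20*) and numbered 260, 125, 438 and 445 cells. Their cluster also carried 3 of the 4 chamber EdC markers and 3 of 5 cushion mesenchyme markers. MCs formed 3 clusters with 4 of the 5 cushion mesenchyme markers each and numbered 695, 289, 1240 and 1104 cells. Another mesenchymal cluster, led by *Lhx2* and *Dkk2* and without the cushion markers, was kept out of the MCs after the clusters had been seen. It made up 3.95% and 0.296% of the cells in control replicates 5 and 7 and 7.74% and 1.22% in *Tie2-cko* replicates 6 and 8. Replicates 5 and 6 stood apart from replicates 7 and 8 in several values, a split that the labels do not name. The summed level of 6 red blood cell genes, which free RNA can carry into other cells, was 31.8 to 89.3 UMIs per 10000 in the 3 cell types of the control libraries and 10.8 to 15.1 in those of the *Tie2-cko* libraries. Levels below are the mean over the cells of a library of UMIs per 10000 UMIs. As transcripts were counted by their tags, levels of different genes were not corrected for length and are not ranked against each other.

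A stepwise pattern was shared by 6 of the 10 members, which were higher in cushion than in chamber EdCs and higher again in MCs, with no overlap between the 4 libraries of neighbouring cell types. They were *Snai1*, *Snai2*, *Twist1*, *Twist2*, *Msx1* and *Sox9*. Of the 12543 genes compared, 2.34% did the same. Since cell types were made by clustering the same cells, the difference between cell types is given as a description without a test. All cells were taken at E10.5, and the descent of cells from one type to the next was not traced. The MCs pool 3 clusters, and in cluster 18 the genotypes overlapped for *Tek*.

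*Twist1* was at 0.349, 0.528, 0.419 and 0.616 in chamber EdCs of replicates 5, 6, 7 and 8. It was at 1.55, 1.87, 1.58 and 1.69 in cushion EdCs, and at 8.29, 8.54, 8.33 and 7.68 in MCs. The lowest cushion library thus lay above the highest chamber library, and the lowest MC library far above both. The ratio of the means was 3.50 for the first step and 4.91 for the second, and within single libraries the second step ranged from 4.56 to 5.34.

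*Sox9* had its larger step between chamber and cushion EdCs. It was at 0.0713, 0.174, 0.0962 and 0.154 in chamber EdCs, at 0.915, 1.08, 0.753 and 0.943 in cushion EdCs, and at 2.95, 4.05, 3.59 and 3.30 in MCs, in the same order of replicates. The ratio of means was 7.44 from chamber to cushion EdCs and 3.76 from cushion EdCs to MCs. The next largest first step among these members was that of *Twist1*.

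*Snai1*, the factor that represses E-cadherin in many transitions, was at 0.0618, 0.0218, 0.0480 and 0.0538 in chamber EdCs, at 0.0991, 0.143, 0.102 and 0.120 in cushion EdCs and at 0.538, 0.527, 0.608 and 0.524 in MCs. Its ratios were 2.50 and 4.73. The chamber values of *Snai1* rest on 20 to 47 UMIs per library.

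*Snai2* had ratios of 3.02 and 3.55, from 0.0355 to 0.0661 in chamber EdCs over 0.120 to 0.173 in cushion EdCs to 0.364 to 0.603 in MCs. In MCs its libraries fell into pairs that crossed the genotypes, with 0.364 and 0.404 in replicates 5 and 6 and 0.603 and 0.590 in replicates 7 and 8. *Twist2* had ratios of 3.03 and 3.08, from 0.0153 to 0.0355 over 0.0428 to 0.0930 to 0.181 to 0.254. *Msx1* was at 0.130 to 0.266 in chamber EdCs, 0.621 to 0.817 in cushion EdCs and 1.08 to 1.42 in MCs, so that its first ratio (3.19) was larger than its second (1.73).

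*Msx2* and *Prrx1* were close to 0 in both kinds of EdCs and higher in MCs. *Prrx1* was at 0.0127, 0.00166, 0.00397 and 0.0114 in chamber EdCs, at 0.0144, 0.0116, 0.0244 and 0.0197 in cushion EdCs and at 0.516, 0.563, 0.490 and 0.571 in MCs. Its libraries overlapped at the first step and lay 30.5-fold apart in their means at the second. *Msx2* was at 0.00206 to 0.00694 in chamber EdCs, at 0.00122 to 0.0146 in cushion EdCs, where 1 to 9 UMIs were counted per library, and at 0.0973 to 0.155 in MCs.

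The Zeb genes did not share the stepwise pattern. *Zeb1* was highest in cushion EdCs, at 1.01, 0.963, 0.821 and 0.875, against 0.753, 0.789, 0.611 and 0.749 in chamber EdCs and 0.697, 0.663, 0.611 and 0.643 in MCs. Its cushion libraries lay above all libraries of both other cell types. Chamber EdCs and MCs did not differ beyond the spread of their libraries. *Zeb2* was at 0.737 to 0.979 in chamber EdCs, 0.820 to 1.08 in cushion EdCs and 0.956 to 1.07 in MCs, and its 3 cell types overlapped.

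Counted by steps, 7 of 10 members were higher in cushion than in chamber EdCs with no overlap of libraries and none was lower, where 20.8% of all genes compared were higher and 8.28% lower. From cushion EdCs to MCs 8 of 10 were higher and *Zeb1* alone was lower, where 16.1% of genes were higher and 19.9% lower.

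**Figure D1:**
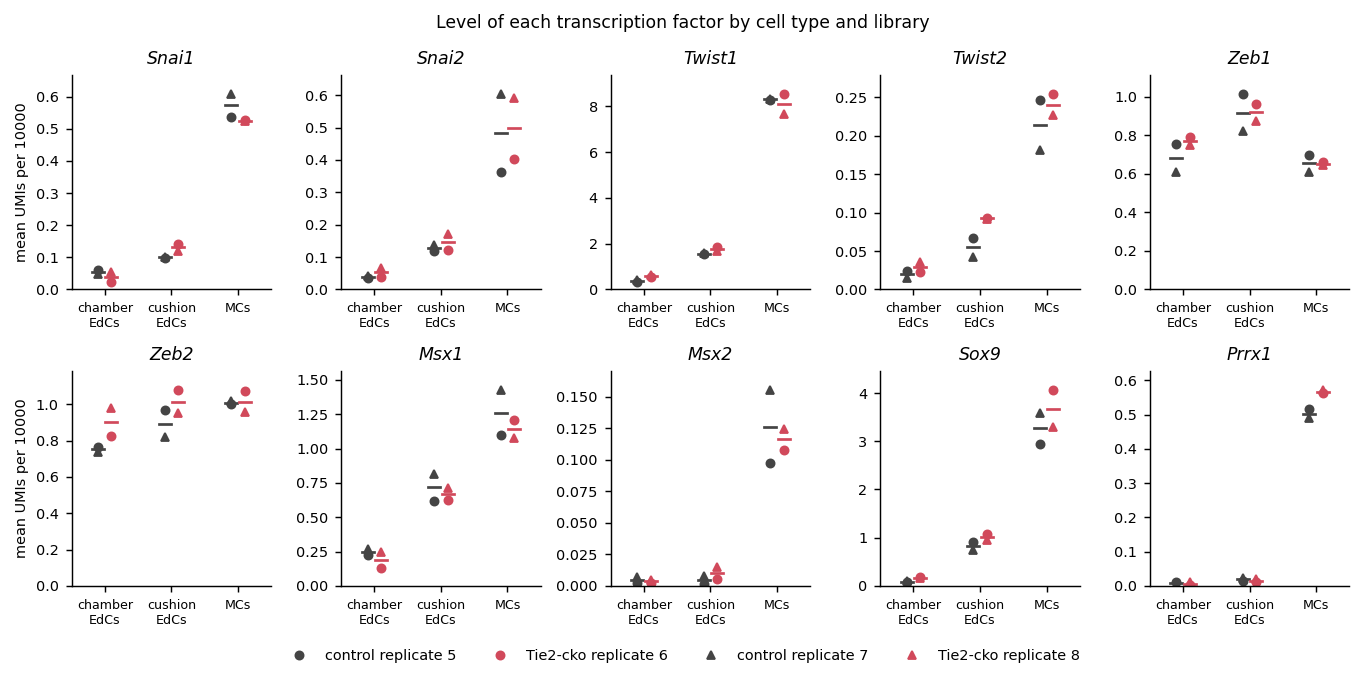
Mean level of each member (y axis, UMIs per 10000, from 0) in chamber EdCs, cushion EdCs and MCs; each point is 1 library (grey control, red Tie2-cko; circles replicates 5 and 6, triangles 7 and 8) and each bar the mean of a genotype (n = 2). *Twist1* lies at 0.349 to 0.616, then 1.55 to 1.87, then 7.68 to 8.54, while *Zeb1* is highest in cushion EdCs and *Prrx1* is near 0 in both kinds of EdCs.

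Shares of cells holding a UMI were taken at equal depth, by thinning every cell to 5500 UMIs. By this measure 6 members were higher at both steps, with *Prrx1* in place of *Snai2*, whose shares reached 5.51% in chamber EdCs and began at 4.26% in cushion EdCs. The first step of *Prrx1* lay near 0, at 0% to 0.565% of chamber EdCs and 0.775% to 1.40% of cushion EdCs. Shallower cells were left out, 13 to 42 chamber EdCs, 1 to 17 cushion EdCs and 9 to 36 MCs per library. *Twist1* was detected in 16.1% to 23.0% of thinned chamber EdCs, 40.9% to 45.0% of cushion EdCs and 90.4% to 92.7% of MCs. In red blood cells, which should lack it, the share was 0.621% to 1.97%. Without thinning, 58.9% to 72.0% of cushion EdCs held a *Twist1* UMI. *Sox9* was detected in 1.41% to 4.72% of thinned chamber EdCs, 19.9% to 25.0% of cushion EdCs and 65.2% to 78.9% of MCs, against at most 2.31% of red blood cells. In each library the chamber share lay above that of the red blood cells. The pair nearest by ratio was 3.84% against 2.31% in replicate 8, and that nearest by difference 1.41% against 0.0885% in replicate 5. *Snai1* was detected in 4.26% to 8.06% of cushion EdCs and 22.1% to 25.9% of MCs, and *Prrx1* in 0.775% to 1.40% of cushion EdCs and 20.3% to 23.5% of MCs. *Prrx1* in EdCs lay below its 2.74% to 3.55% in CMs. *Zeb1* was found in 27.8% to 34.2% of chamber EdCs, 31.7% to 42.7% of cushion EdCs and 24.7% to 29.6% of MCs, so that by this measure both kinds of EdCs overlapped, and *Zeb2* in 30.7% to 49.2% of cells of all 3 types.

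Cells also differed in how many members they held at once. At 5500 UMIs the mean number of members detected per cell was 0.969 to 1.16 in chamber EdCs, 1.63 to 2.10 in cushion EdCs, 3.37 to 3.53 in MCs and 0.0952 to 0.197 in red blood cells. At least 3 of the 10 were found in 5.93% to 9.45% of chamber EdCs, 24.1% to 37.1% of cushion EdCs and 72.9% to 76.4% of MCs. None of the 10 was found in 11.3% to 20.6% of cushion EdCs, which at this depth does not show that the genes were off in those cells. Among thinned cushion EdCs, those with 3 or more members held 3.89 to 4.13 UMIs of 5 endothelial markers (*Cdh5*, *Tie1*, *Plxnd1*, *Ecscr* and *Pecam1*) per cell, and those with no member held 4.68 to 5.64. The order was turned for 6 mesenchyme markers (*Fbln2*, *Postn*, *Pdgfra*, *Col1a1*, *Col3a1* and *Cthrc1*), with 2.82 to 3.63 UMIs per cell in the former and 1.71 to 2.07 in the latter. Even so, 91.2% to 98.6% of the cushion EdCs with 3 or more members held at least 1 endothelial UMI. Such cells and doublets of an EdC and an MC that escaped removal cannot be told apart here.

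**Figure D2:**
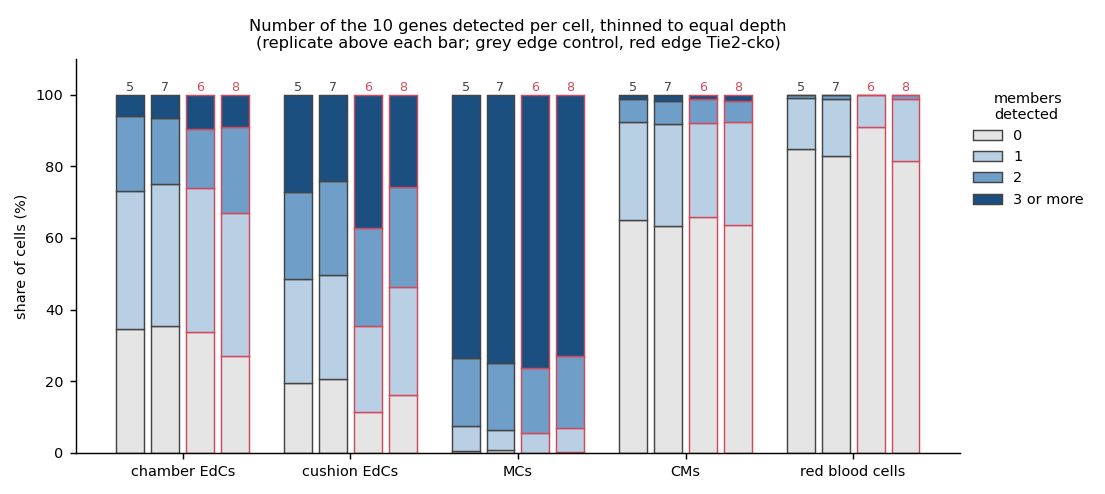
Share of cells (y axis, %) in which 0, 1, 2 or 3 or more of the 10 members were detected after thinning to 5500 UMIs, 1 bar per library with its replicate number above (grey edge control, red edge *Tie2-cko*). The share with 3 or more grows from at most 9.45% in chamber EdCs to at least 72.9% in MCs, and is at most 1.86% in CMs.

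Within the 4 paralogue pairs the balance was not the same. *Snai1* made up 39.1% to 50.9% of the UMIs of the Snai pair in cushion EdCs and 45.2% to 57.0% in MCs, so that neither gene dominated. *Twist1* made up 92.5% to 96.8% of its pair in chamber EdCs and 97.0% to 97.9% in MCs. *Msx1* made up 97.9% to 99.6% of its pair in cushion EdCs and 89.3% to 92.3% in MCs. *Zeb1* made up 48.9% to 53.1% of its pair in cushion EdCs and 37.8% to 40.1% in MCs, with no overlap of libraries. These shares compare UMIs of different genes and depend on how well each transcript was captured.

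The 3 MC clusters held different combinations of the members. Clusters 6 and 14 were led by *Twist1* with *Papss2* and *Hapln1*, and cluster 18 by *Postn*, *Tgfbi* and *Meox1*. Although the members were not used for clustering, clusters summarise all genes of the same cells, and these values are descriptions. *Twist1* was at 8.51 to 9.75 in cluster 6 and 9.59 to 10.7 in cluster 14, but at 3.10 to 4.23 in cluster 18. *Msx1* was at 1.22 to 1.65 and 1.46 to 1.93 in the first pair and at 0.113 to 0.184 in cluster 18, which is below its level in cushion EdCs. The reverse was found for *Prrx1*, at 0.326 to 0.40 and 0.218 to 0.467 against 1.09 to 1.23 in cluster 18, and for *Twist2*, at 0.102 to 0.171 and 0.119 to 0.161 against 0.492 to 0.617. *Zeb2* was also higher in cluster 18 (1.22 to 1.33) than in the others (0.833 to 1.08), and *Zeb1* lower (0.381 to 0.575 against 0.631 to 0.758). *Sox9* (3.08 to 4.20 in cluster 18, 2.67 to 4.22 in the others) and *Snai1* (0.472 to 0.584, and 0.481 to 0.664) overlapped between all 3 clusters. The split of *Snai2* by replicates seen over all MCs was present in clusters 6 and 14, at 0.356 to 0.469 in replicates 5 and 6 and 0.595 to 0.671 in replicates 7 and 8, and not in cluster 18, at 0.359 to 0.428 in all 4.

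The floxed gene itself behaved differently in these clusters. *Tek* was at 0.137 and 0.326 in cluster 6 of the control libraries and at 0.0300 and 0.0169 in that of the *Tie2-cko* libraries, and at 0.208 and 0.316 against 0.0269 and 0.0201 in cluster 14. In cluster 18 it was at 0.0954 and 0.0744 in controls and 0.0837 and 0.0847 in *Tie2-cko*, and the genotypes overlapped. The genotype difference of *Tek* was not tested between these clusters.

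**Figure D3:**
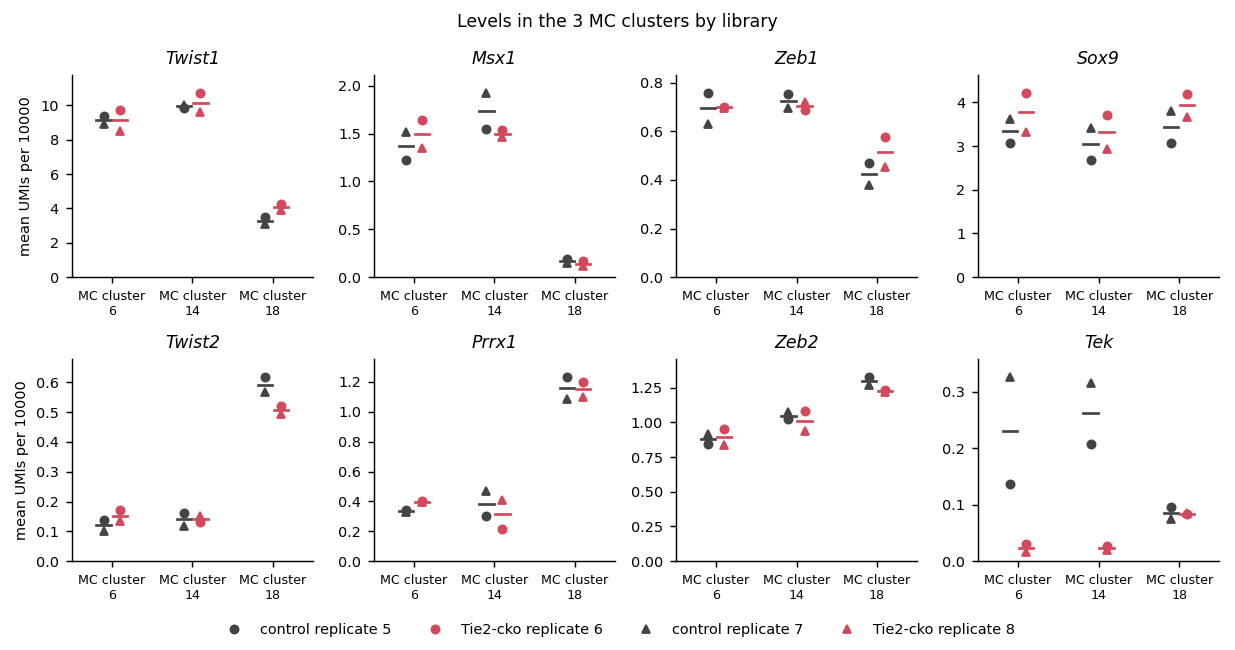
Mean level (y axis, UMIs per 10000, from 0) of 7 members and *Tek* in MC clusters 6, 14 and 18; each point is 1 library (grey control, red Tie2-cko; circles replicates 5 and 6, triangles 7 and 8) and each bar the mean of a genotype. Cluster 18 has less *Twist1* and *Msx1* and more *Prrx1*, *Twist2* and *Zeb2*, and lacks the genotype difference of *Tek* seen in clusters 6 and 14.

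The members were also present in other cells of the dissected region. *Prrx1* was highest in neural-crest-like or pharyngeal mesenchyme, at 1.53 ± 0.496 (SD, n = 4), which is the cluster it led, and *Twist2* was there at 0.521 ± 0.213. *Twist1* was at 2.41 ± 0.422 in the same cells, below every MC library. *Sox9* was at 1.18 ± 0.220 in epicardial cells and 0.547 ± 0.267 in epithelial cells. *Msx2* was highest in the *Lhx2* and *Dkk2* cluster (0.247 ± 0.0975). It was at 0.190 ± 0.0366 in neural-crest-like or pharyngeal mesenchyme and 0.133 ± 0.0474 in epithelial cells. In CMs *Msx2* was at 0.119 ± 0.0428, close to its 0.121 ± 0.0251 in MCs, and the libraries of CMs and MCs overlapped. *Zeb2* was highest in neural cells (2.09 ± 1.09), of which replicates 7 and 8 held 14 and 19, and was at 1.24 ± 0.0955 in immune or platelet cells. *Zeb1* was at 0.709 ± 0.0815 in vascular endothelial-like cells, within the range of chamber EdCs. The means of all members but *Zeb2* were below 0.05 in red blood cells.

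**Figure D4:**
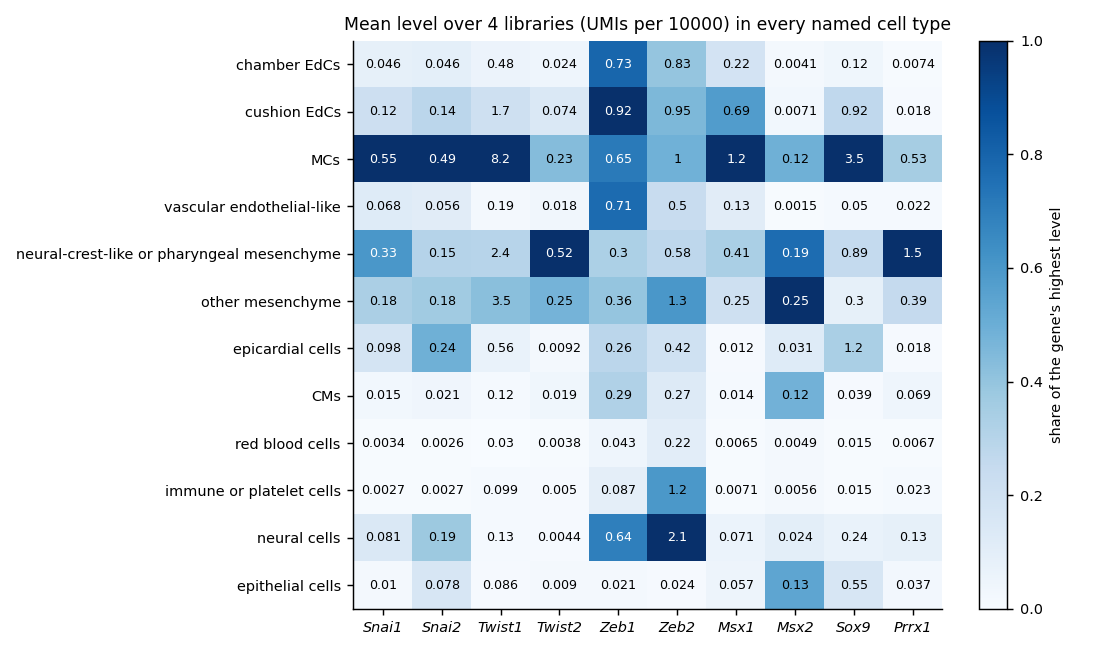
Mean level over the 4 libraries (number in each square, UMIs per 10000) of the members (columns) in every named cell type (rows), shaded by its share of the gene's highest level. MCs are the highest for *Snai1*, *Snai2*, *Twist1*, *Msx1* and *Sox9*, cushion EdCs for *Zeb1*, and neural-crest-like or pharyngeal mesenchyme for *Twist2* and *Prrx1*.

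The patterns were compared over 46 points, each a named cell type with at least 20 cells in a library. Points of 1 library share its depth and free RNA, so the correlations are descriptions. Among members, *Snai1* and *Twist1* were the most alike (Pearson's r = 0.921), followed by *Twist1* and *Twist2* (0.851), and *Zeb2* and *Msx2* the least (-0.23). Of 9618 other genes, the most like *Twist1* were the fibrillar collagen gene *Col3a1* (0.906) and *Pdgfra* (0.900), the latter also the most like *Snai1* (0.856, then *Nkd1* at 0.852). *Sox9* was most like *Sox5* (0.921), a partner of SOX9 in cartilage, and *Cthrc1* (0.905). *Msx1* was most like *Sncaip* (0.907) and the gelatinase gene *Mmp2* (0.905), *Snai2* like *Mras* (0.866) and *Synpo* (0.863), and *Msx2* like the chemokine gene *Cxcl12* (0.865) and the Wnt antagonist gene *Sfrp1* (0.861). *Prrx1* and *Twist2* shared the ephrin receptor gene *Epha3* (0.912 and 0.883), beside *Clmp* (0.879) for *Prrx1* and *Dnm3os* (0.883) for *Twist2*. *Zeb1* was most like *Adgra2* (0.904) and the intermediate filament gene *Vim* (0.868), and *Zeb2* like *Inka1* (0.777) and *Emilin1* (0.738). *Col3a1*, *Pdgfra* and *Cthrc1* had been used to name the MCs.

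The second comparison set *Tie2-cko* against control hearts, to ask whether loss of *Tie2* from the endocardial lineage was accompanied by a change in these factors. With 2 libraries against 2, an exact permutation test cannot give a two-sided p below 0.333, and the tests below are fits over all genes by edgeR's quasi-likelihood method. They measure the spread between these libraries.

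*Tek*, the gene deleted in *Tie2-cko*, was first examined in every library. In chamber EdCs it was at 0.884 and 1.01 in control replicates 5 and 7 and at 0.121 and 0.152 in *Tie2-cko* replicates 6 and 8, a log2 fold change of -2.58 (SE 0.20, adjusted p = 0.0129). In cushion EdCs it was at 0.871 and 1.67 against 0.359 and 0.299 (log2 fold change -2.03, SE 0.27, adjusted p = 0.0986). In MCs it was at 0.149 and 0.283 against 0.0437 and 0.0343 (log2 fold change -2.19, SE 0.35, adjusted p = 0.615). The genotypes did not overlap in any of the 3, and each library lay on the side that its label gives, although in these fits *Tek* passed the threshold of 0.05 in chamber EdCs alone. In cushion EdCs *Tek* also passed with DESeq2 (adjusted p = 6.32e-10), without a filter on low counts (2.09e-28), with a stricter filter on cells (0.0209), with replicates 5 and 6 and replicates 7 and 8 as blocks (3.5e-66) and without control replicate 5 (2.72e-06) or 7 (0.000136). In MCs it passed with DESeq2 (2.11e-06), without the filter on low counts (1.71e-22), with the blocks (1.05e-44) and without control replicate 5 (0.000219) or 7 (0.0453). In vascular endothelial-like cells *Tek* was at 0.536 and 0.670 in controls and 0.699 and 0.369 in *Tie2-cko*.

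No member passed an adjusted p of 0.05 in any of the 3 cell types. Of all genes tested, 0.00871% passed in chamber EdCs, which was *Tek* alone, and 0% in cushion EdCs and in MCs. At an unadjusted p under 0.05, 770 of 11483 genes passed in chamber EdCs, 271 of 11351 in cushion EdCs and 125 of 12686 in MCs, while DESeq2 called 24, 7 and 9 genes, none of them a member.

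In chamber EdCs 8 of 10 members had enough counts to be tested, *Msx2* and *Prrx1* being too low. Their median log2 fold change was 0.28, from -0.20 for *Snai1* to 0.96 for *Sox9*, beside 0.0017 over all genes. Both *Tie2-cko* libraries lay above both controls for 3 of the 8 (*Twist1*, *Zeb2* and *Sox9*), as for 19.6% of all genes, and below them for none, as for 13.9% of all genes.

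*Sox9* had the largest difference of the members in chamber EdCs. Its level was 0.0837 ± 0.0176 (SD, n = 2) in controls and 0.164 ± 0.0139 in *Tie2-cko*, and both *Tie2-cko* libraries (0.174 and 0.154) lay above both controls (0.0713 and 0.0962). These values rest on 35 and 86 UMIs in controls and 89 and 85 in *Tie2-cko*. The log2 fold change was 0.96 (SE 0.30), with an unadjusted p of 0.0119 and an adjusted p of 0.563. It passed with replicates 5 and 6 and replicates 7 and 8 as blocks (adjusted p = 0.000671), a pairing that the labels do not give, without a filter on low counts (0.0106) and without control replicate 7 (0.00867, with a log2 fold change of 1.52), and did not pass under the other alternatives. After thinning, 1.41% and 3.29% of control cells and 4.72% and 3.84% of *Tie2-cko* cells held a *Sox9* UMI. In the same cells the 4 cushion EdC markers summed to 1.35 and 1.42 in controls and 1.28 and 1.44 in *Tie2-cko*, and the 6 mesenchyme markers to 2.94 and 3.23 against 3.0 and 3.03, so that both lists overlapped between genotypes. The red blood cell genes summed to 89.3 and 37.1 in controls and 15.1 and 13.6 in *Tie2-cko*, and their part in the result was not tested. *Sox9* was also higher in both *Tie2-cko* libraries of CMs, with means of 0.0272 in controls and 0.0508 in *Tie2-cko*. So it was in epithelial cells (0.377 and 0.716), epicardial cells (1.03 and 1.34) and neural-crest-like or pharyngeal mesenchyme (0.760 and 1.02). Apart from these and cushion EdCs, its genotypes overlapped in every other named cell type. Whether these differences share a source was not tested. The share of all genes higher in both *Tie2-cko* libraries was 15.7% to 19.6% in chamber EdCs, cushion EdCs and MCs. It was not counted in other cell types.

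*Twist1* in chamber EdCs was at 0.384 ± 0.0498 in controls and 0.572 ± 0.0627 in *Tie2-cko*, with both *Tie2-cko* libraries above both controls (log2 fold change 0.36, SE 0.17, adjusted p = 0.763). It passed with the replicates as blocks (adjusted p = 0.0356) and under no other alternative. *Zeb2* was at 0.752 ± 0.0207 and 0.902 ± 0.110 (log2 fold change 0.21, SE 0.14, adjusted p = 0.842). *Twist1* was also higher in both *Tie2-cko* libraries of vascular endothelial-like cells (means of 0.126 and 0.256), where the genotypes overlapped for *Tek*. It was lower in immune or platelet cells. *Zeb2* was higher in vascular endothelial-like cells (0.463 and 0.544), neural-crest-like or pharyngeal mesenchyme and the *Lhx2* and *Dkk2* cluster. It was lower in red blood cells and immune or platelet cells. Whether these differences share a source was not tested. Outside chamber EdCs, cushion EdCs and MCs, the share of all genes ordered in these ways was again not counted.

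In cushion EdCs 9 members were tested, all but *Msx2*, with a median log2 fold change of 0.15 beside 0.0014 over all genes. Both *Tie2-cko* libraries lay above both controls for *Snai1*, *Twist1*, *Twist2* and *Sox9*, 4 of the 9, as for 18.8% of all genes. None lay below, as for 9.7% of all genes. *Twist2* had the largest log2 fold change (0.67, SE 0.32, adjusted p = 1), from 0.0675 and 0.0428 in controls to 0.0930 and 0.0919 in *Tie2-cko*. *Sox9* was at 0.834 ± 0.114 and 1.01 ± 0.0977 (log2 fold change 0.18, SE 0.14, adjusted p = 1), and *Msx1* had the lowest value (-0.29, SE 0.18, adjusted p = 1), its genotypes overlapping.

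In MCs all 10 were tested on sums over the 3 clusters. Their log2 fold changes lay between -0.28 for *Msx2* and 0.17 for *Twist2*, with a median of -0.01 beside 0.0045 over all genes. Standard errors were 0.12 to 0.27. *Prrx1* alone was higher in both *Tie2-cko* libraries, at 0.563 and 0.571 against 0.516 and 0.490 (log2 fold change 0.14, SE 0.13, adjusted p = 1), where 15.7% of genes were. *Snai1* alone was lower, at 0.527 and 0.524 against 0.538 and 0.608 (-0.13, SE 0.13, adjusted p = 1), where 8.3% of genes were. *Msx1* was at 1.26 ± 0.228 in controls and 1.14 ± 0.0940 in *Tie2-cko* (-0.26, SE 0.15, adjusted p = 1). In data simulated on these libraries, the same test recovered 48.5% of the genes given a log2 fold change of 1 in chamber EdCs, 56% in cushion EdCs and 56.5% in MCs, so that changes of that size could be missed. Its calls also included 15, 15 and 26 unchanged genes, beside 97, 112 and 113 changed ones. The simulation changed 200 genes in each cell type, while the fits to the real counts called 1, 0 and 0 genes. In the real MCs *Tek*, at a log2 fold change of -2.19, did not pass (edgeR adjusted p = 0.615). The shares recovered may thus overstate what the test finds in the real counts.

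**Figure D5:**
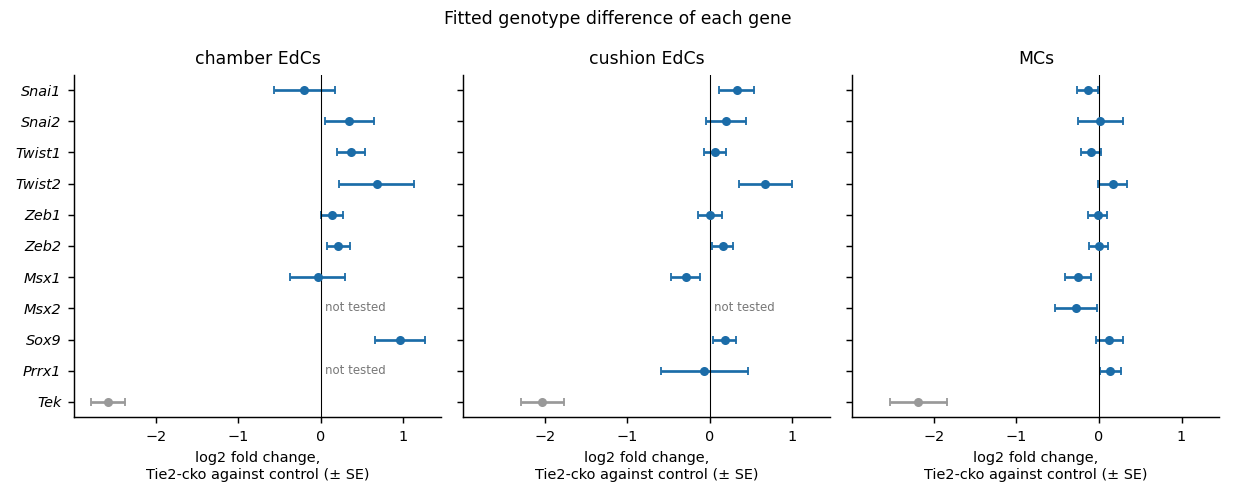
Log2 fold change of *Tie2-cko* against control (x axis, points, with bars of 1 SE) of the 10 members (blue) and *Tek* (grey) in chamber EdCs, cushion EdCs and MCs, from edgeR with 2 libraries per genotype. *Tek* lies between -2.58 and -2.03 in all 3, *Sox9* in chamber EdCs is the highest member at 0.96, and members in MCs lie between -0.28 and 0.17; "not tested" marks genes too low for the fit.

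The genotype effect was then compared between cell types in 1 fit of the 3 cell types with the library as a block. Between chamber and cushion EdCs 0.582% of 12543 genes passed, 73 in number and none of them a member. *Sox9* came nearest, its effect being 0.78 higher on the log2 scale in chamber EdCs (SE 0.26, adjusted p = 0.242), and it passed without a filter on low counts (0.0126) and with a stricter filter on cells (0.0263). *Twist1* followed (0.33, SE 0.12, adjusted p = 0.37) and passed when *Tie2-cko* replicate 6 was left out (0.00749). Between cushion EdCs and MCs 0.0159% of genes passed, 2 in number and again no member, the lowest unadjusted p being that of *Msx2* (-1.62, SE 0.64, adjusted p = 0.916), which rests on 1 to 9 UMIs per library in cushion EdCs.

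Genes that act with these factors were examined as 4 lists, of cushion induction signals (25 genes), other cushion transcription factors (19), mesenchymal effectors (19) and endothelial identity genes (16). No gene of any list passed an adjusted p of 0.05 in edgeR in any of the 3 cell types, of 73, 76 and 76 tested in chamber EdCs, cushion EdCs and MCs, and the values below are those with the lowest unadjusted p. Of the cushion induction signals, 23 were tested in chamber EdCs, with a median log2 fold change of 0.27. The BMP ligand gene *Bmp6* (1.89, SE 0.58, adjusted p = 0.563) and the SMAD inhibitor gene *Smad7* (0.49, SE 0.16, adjusted p = 0.566) were higher in both *Tie2-cko* libraries there, as was the Notch ligand gene *Dll4* in cushion EdCs (0.66, SE 0.29, adjusted p = 1). In chamber EdCs *Bmp6* was low, at 0.0288 and 0.00806 in controls and 0.0909 and 0.0361 in *Tie2-cko*. The Notch target gene *Hey1* in cushion EdCs (0.39, SE 0.17), the neuregulin receptor gene *Erbb3* in MCs (0.22, SE 0.14) and the TGF-beta receptor gene *Tgfbr2* in MCs (-0.28, SE 0.18) each had an adjusted p of 1. Medians of this list were 0.085 in cushion EdCs and 0.075 in MCs.

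Of the other cushion transcription factors, *Tcf4*, an E-protein gene whose product pairs with TWIST factors, had the lowest p in chamber EdCs. It was at 0.779 and 0.755 in controls and 1.17 and 1.28 in *Tie2-cko* (log2 fold change 0.69, SE 0.13, adjusted p = 0.232). *Klf4* was also higher in both *Tie2-cko* libraries (0.96, SE 0.28, adjusted p = 0.535). *Meox1*, a homeobox gene that led MC cluster 18, was higher in both *Tie2-cko* libraries in cushion EdCs (0.70, SE 0.22, adjusted p = 1) and in MCs (0.51, SE 0.16, adjusted p = 1). Within cluster 18 *Meox1* was at 1.31 and 1.04 in controls and 2.22 and 1.36 in *Tie2-cko*. In clusters 6 and 14 it was at 0.194 to 0.355 and its genotypes overlapped. Cluster 18 held 146 of 695 and 197 of 1240 MCs in controls, and 79 of 289 and 270 of 1104 in *Tie2-cko*. The part of this mix of clusters in the MC value was not tested. *Mecom* in cushion EdCs (0.39, SE 0.14) and *Hand1* in MCs (-0.40, SE 0.14) had adjusted p-values of 1. The medians of the list were 0.22, 0.14 and 0.072 in chamber EdCs, cushion EdCs and MCs.

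Of the mesenchymal effectors, the collagen gene *Col5a1* (0.64, SE 0.17, adjusted p = 0.424) and the N-cadherin gene *Cdh2* (0.86, SE 0.26, adjusted p = 0.535) were higher in both *Tie2-cko* libraries of chamber EdCs. *Lox* (0.79, SE 0.37) and *Mmp2* (0.29, SE 0.15) were so in cushion EdCs, and *Cd44* (0.45, SE 0.16) and *Cdh2* (0.33, SE 0.14) in MCs, each with an adjusted p of 1. The medians were 0.11, -0.0035 and 0.027. Of the endothelial identity genes, *Etv2*, an early endothelial regulator, was lower in both *Tie2-cko* libraries of chamber EdCs, at 0.164 and 0.224 against 0.520 and 0.386 (log2 fold change -1.32, SE 0.22, adjusted p = 0.206), and passed under 7 of its alternatives. The guidance receptor gene *Robo4* was higher (2.03, SE 0.41, adjusted p = 0.248). It rests on low levels, 0.0184 and 0.00937 in controls and 0.0477 and 0.0479 in *Tie2-cko*. In cushion EdCs *Cldn5* (1.07, SE 0.34) and *Sox18* (0.68, SE 0.23) were higher in both *Tie2-cko* libraries, with adjusted p-values of 1. *Ets1* (0.26, SE 0.14) and the VEGF receptor gene *Flt1* (-0.26, SE 0.16) had the lowest p of the list in MCs, both with an adjusted p of 1. Medians of the list were 0.19, 0.14 and 0.015. In the comparison of the genotype effect between chamber and cushion EdCs, 8 genes of the lists passed, of which *Tcf4*, *Vim*, *Col5a1*, *Sparc*, *Bmp2* and *Tgfb2* had the higher effect in chamber EdCs and *Hapln1* and *Cldn5* in cushion EdCs.

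Several of these list genes passed under alternatives. They had been picked for the lowest unadjusted p in the same libraries, so that these passes are not independent results. Of all genes, 802 of 11483 passed with the blocks in chamber EdCs, 116 of 11351 in cushion EdCs and 91 of 12686 in MCs. Without a filter on low counts 164 of 18237 passed in chamber EdCs and 41 of 17980 in cushion EdCs. With replicates 5 and 6 and replicates 7 and 8 as blocks, *Bmp6*, *Smad7*, *Tcf4*, *Klf4*, *Col5a1*, *Cdh2*, *Etv2* and *Robo4* passed in chamber EdCs, with adjusted p-values from 3.78e-13 for *Etv2* to 0.00253 for *Klf4*. In cushion EdCs *Meox1*, *Mecom*, *Cldn5* and *Sox18* passed with the blocks (0.000328 to 0.0164), and in MCs *Meox1*, *Hand1* and *Cdh2* (4.26e-06 to 0.0249). Without a filter on low counts, *Bmp6*, *Tcf4*, *Klf4*, *Cdh2*, *Etv2* and *Robo4* passed in chamber EdCs (1.81e-09 to 0.0391) and *Cldn5* in cushion EdCs (0.0125). *Bmp6* and *Robo4* passed in chamber EdCs when control replicate 5 or *Tie2-cko* replicate 8 was left out (0.00347 to 0.0153), *Klf4* when *Tie2-cko* replicate 6 was (0.0471), and *Etv2* when any 1 library was (2.55e-06 to 0.0284) and with DESeq2 (0.00374). Without control replicate 5 the log2 fold change of *Bmp6* was 2.99.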

How the data were processed

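The deposited files hold counts of UMIs for each gene and barcode. They were made by the authors with Cell Ranger, version 6.1.2 by the file headers (the methods name another), and carry no normalization. The submitters' processing notes name mm10, and a correction for free RNA is not given in the sources used here. Groups come from the sample labels. The members, lists, tests and alternatives were chosen with earlier results of these data known. By the methods, 2 hearts per genotype came from the same litter and somite-matched libraries shared a lane, but the labels do not say which libraries match, and p-values may measure technical spread.

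A barcode was a cell if it had 500 genes or more, 1000 UMIs or more and no more than 10% mitochondrial UMIs. Of these, the highest Scrublet scores (scanpy 1.11.5) were removed as doublets, 0.8% per 1000 barcodes or 285 to 982 per library. Seurat 5.3.0 clustered all libraries together, without integration, on 1938 of 2000 variable genes (listed genes left out), with 30 components, 20 neighbours and resolution 0.8. A cluster was named for the list with the largest share of markers present, each at 0.25 or more of its highest cluster, if 3 or more markers and over 0.5 of the list were. Clusters with a median depth under 0.333 of their libraries' were left unnamed, and 1 of them, of 243 to 561 cells per library, carried 3 of the 4 chamber EdC markers.

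UMIs of a library and cell type were added up and tested across all genes in edgeR 4.0.16 (R 4.3.3) by TMM, filterByExpr and the quasi-likelihood test, with Benjamini-Hochberg adjustment and a threshold of 0.05. SE is the absolute log2 fold change over the square root of F. Fold changes rest on these sums, to which deep cells add more, and levels on means over cells. The tests were tried on simulated data. Alternatives were DESeq2 1.42.0, its size factors, no filter on low counts, each library left out, replicates 5 and 6 against 7 and 8 as blocks, a stricter cell filter (1500 genes, 5% mitochondrial UMIs), no removal of doublets, and resolutions 0.4 and 1.2. Likeness was Pearson's r of log2(UMIs per 10000 + 0.01) over genes with a mean of 0.05 or more. Named genes are the members, *Tek*, the 2 genes most like each member, for each list and cell type the genes past the threshold and the 2 with the lowest unadjusted p, and markers or leading genes of clusters. The 8 list genes named for the comparison of chamber with cushion EdCs were named after their values were seen. Promoter sequences are from RefSeq.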

Additional observations from a re-analysis of the deposited data

Results flagged for a closer look

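The genotype effect (*Tie2-cko* against control) differed between chamber and cushion EdCs for 8 genes of the lists, by the test of the cell type by genotype term in edgeR with the library as a block. None is a member of the transcription factor list, and the 8 were named after their values were seen. The BMP ligand gene *Bmp2* had an effect 1.81 higher on the log2 scale in chamber EdCs (adjusted p = 0.0455), but the test rests on low levels, 0.0261 and 0.0299 UMIs per 10000 in controls against 0.0176 and 0.0763 in *Tie2-cko* chamber EdCs. The TGF-beta ligand gene *Tgfb2* differed by 0.85 (adjusted p = 0.0283), being at 0.285 and 0.270 against 0.397 and 0.433 in chamber EdCs, and at 0.717 and 1.06 against 0.711 and 0.699 in cushion EdCs. *Tcf4* differed by 0.47 (adjusted p = 0.0283), and both *Tie2-cko* libraries were above both controls in chamber and in cushion EdCs. Of the mesenchymal effectors, *Col5a1* differed by 0.76 (adjusted p = 0.033), *Sparc* by 0.32 (adjusted p = 0.0203) and *Vim* by 0.22 (adjusted p = 0.0351), each with *Tie2-cko* libraries above both controls in chamber EdCs and overlapping in cushion EdCs. *Hapln1*, which links hyaluronan to proteoglycans, differed by -0.34 (adjusted p = 0.0136), and the tight junction gene *Cldn5* by -1.65 (adjusted p = 0.0179). *Cldn5* was at 0.12 and 0.103 in control against 0.0451 and 0.0764 in *Tie2-cko* chamber EdCs and at 0.107 and 0.0670 against 0.146 and 0.176 in cushion EdCs. At a clustering resolution of 0.4, 2 genes passed this test in place of 73, and the effects of these 8 genes then kept their direction with adjusted p-values of 0.254 to 0.795. At that resolution no cluster was named vascular endothelial-like. The cushion EdC cluster then held 342, 189, 480 and 494 cells in replicates 5, 6, 7 and 8 and carried all 5 vascular endothelial markers. The part of such cells in the drop was not tested. Without control replicate 7 none of the 8 passed (adjusted p = 0.435 to 0.895), and with DESeq2 *Bmp2*, *Tcf4*, *Vim*, *Col5a1*, *Sparc* and *Hapln1* did not (0.106 to 0.942). *Tcf4*, *Vim*, *Col5a1*, *Sparc*, *Hapln1* and *Bmp2* also failed without control replicate 5 (0.0843 to 0.481), *Bmp2*, *Tgfb2*, *Tcf4*, *Col5a1* and *Cldn5* without *Tie2-cko* replicate 8 (0.0853 to 0.586) and *Tcf4* without *Tie2-cko* replicate 6 (0.075). *Bmp2*, *Vim*, *Sparc*, *Hapln1* and *Cldn5* did not pass with the stricter cell filter (0.0686 to 0.202), *Tgfb2*, *Col5a1* and *Cldn5* without removal of doublets (0.0569 to 0.134), and *Bmp2* with the size factors of DESeq2 (0.0504). *Bmp2* differed by 1.01 in place of 1.81 without *Tie2-cko* replicate 8.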

How the results depend on the processing

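The labels give no replicate number that both genotypes share, so the blocks used below, replicates 5 and 6 and replicates 7 and 8, rest on a split seen in the data and not on the labels. The counts of genes past the threshold moved in every comparison. In chamber EdCs 1 gene passed, against 24 with DESeq2, 164 without the filter on low counts, 802 with these blocks, and 51 to 80 with 1 library left out. In cushion EdCs 0 passed, against 7, 41 and 116 in the same order, 4 without removal of doublets, 6 with the stricter cell filter and 0 to 15 with 1 library left out. In MCs 0 passed, against 9, 23 and 91, and 0 to 15 with 1 library left out. For the difference between chamber and cushion EdCs 73 passed, against 34 with DESeq2, 218 without the filter, 2 at resolution 0.4, and 4 (without control replicate 7) to 131 (without *Tie2-cko* replicate 8). Between cushion EdCs and MCs 2 passed, against 1, 45 and 0 in that order, and 0 to 58 with 1 library left out. The cause was not tested, and at resolution 0.4 the cushion EdC cluster also carried all 5 vascular endothelial markers. The stepwise pattern of 6 members was counted at 5 with the stricter cell filter, where *Twist2* was lost, and at 6 to 7 with 1 library left out. By thinned shares it was 6, with *Prrx1*, near 0 in both kinds of EdCs, in place of *Snai2*. Taking only MC clusters with cushion markers was the same as the analysis reported. No member passed in cushion EdCs or MCs under any alternative. Several log2 fold changes turned in sign, none of them past the threshold. Without removal of doublets *Msx1* in chamber EdCs was 0.022, *Twist1* and *Prrx1* in cushion EdCs -0.0078 and 0.675 and *Snai2* in MCs -0.0042. With the stricter cell filter *Msx1* in chamber EdCs was 0.064 and *Zeb2* in MCs 0.0056. *Zeb1* in cushion EdCs was -0.0045 with DESeq2 and -0.0044 with its size factors, and *Prrx1* there 0.277 at resolution 0.4. With the *Lhx2* and *Dkk2* cluster counted as MCs, an alternative chosen after seeing the data, *Snai2* was -0.13, *Sox9* -0.252, *Prrx1* -0.044 and *Erbb3* -0.156 in MCs. With 1 library left out, chamber EdCs gave -0.578 to 0.195 for *Snai1* and -0.759 to 0.429 for *Msx1*. Cushion EdCs gave -0.201 to 0.467 for *Snai2*, -0.157 to 0.167 for *Zeb1* and -0.879 to 0.349 for *Prrx1*. MCs gave -0.341 to 0.423 for *Snai2*, -0.033 to 0.385 for *Twist2*, -0.059 to 0.015 for *Zeb1*, -0.04 to 0.025 for *Zeb2*, -0.554 to 0.095 for *Msx2* and -0.046 to 0.324 for *Sox9*. Of the log2 fold changes recomputed for named genes, 663 kept their direction and side of the threshold and 31 turned in sign. Another 50 passed the threshold only under the alternative and 43 no longer did.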
